A study of Mus musculus with 6 samples.

Results

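The BCL2 family of cell death regulators was followed in 3T3 cells (a fibroblast line derived from mouse embryos) after transfection with an antisense GapmeR against the long noncoding RNA Ntep. The members were 10 genes, chosen by name: the effectors Bax and Bak1, the BH3-only genes Bbc3, Pmaip1, Bid, Bad and Bcl2l11, and the protectors Bcl2, Bcl2l1 and Mcl1. Every probe carrying their names was used, which gave 14 of the 55681 probes on the array. Below, the effectors and BH3-only genes are together called the 7 killers. A GapmeR is a short oligonucleotide that directs RNase H to a matching RNA. GapmeR Ntep or GapmeR control was applied at 50 nM for 48 h. The study's supplement writes a multiplier before the 50 nM, and its meaning is not stated there. Each of 3 experiments gave 1 array per GapmeR, so 3 arrays labelled GapmeR Ntep stood against 3 labelled GapmeR control. Total RNA was read on Agilent arrays in 1 color, and values are normalized probe intensities without a unit. An intensity compares 1 probe between arrays and not different probes with each other.

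The proteins of this family decide whether the outer mitochondrial membrane stays closed. BAX and BAK1 form pores in it and release cytochrome c, the protectors hold them in check, and BH3-only proteins sense stress and either block the protectors or activate the effectors. Some BH3-only genes are controlled mainly at the level of transcription, as Bbc3 and Pmaip1 are by P53 and Bcl2l11 by forkhead factors. BID and BAD are classically switched on at the protein level, by cleavage and by loss of phosphate, which an RNA array does not see. In fibroblasts, cell death after P53 activation can run through this pathway, and the study asked how P53 and apoptosis respond to Ntep silencing.

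The targeted transcript was measured by a single probe (A630089N07Rik, chr16:98283712-98283771, mm9). In experiments 1, 2 and 3 it read 471.9, 91.5 and 226.2 under the Ntep label, and 271.4, 272.4 and 361.2 under the control label. It was lower under the Ntep label in experiments 2 and 3 and higher in experiment 1, which goes against the label there (log2 difference -0.48, 95% interval -1.91 to 0.94, limma adjusted p = 0.632). Cdkn1a (log2 differences 1.55, 0.90 and 1.08) and Col1a1 (-0.53, -0.11 and -0.66) each had the same direction in experiment 1 as in experiments 2 and 3. Bcl2 (-0.70, 0.49 and 0.68) and the brightest Trp53inp1 probe (1.40, -1.01 and -1.09) had the opposite sign in experiment 1. Whether the labels of experiment 1 are right was not tested. All directions below are those of the array labels, and results are also given without experiment 1 where that matters. Between 43.7% and 53.3% of probes per array were well above background. The GapmeR Ntep array of experiment 2 resembled the control arrays (mean correlation 0.972) as much as the other Ntep arrays (0.971).

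The cells carried the marker pattern of fibroblasts. Of 10 fibroblast markers, 9 were well above background on all 6 arrays, and none passed the test, although 9 of 10 differences were negative (median log2 difference -0.59, summed intensity 555793 to 737645 under the Ntep label and 808632 to 892119 under the control label). Most tested macrophage markers moved the other way. Of 8, the 5 tested ones had a median log2 difference of 1.21 and 1 of them passed (Cd68), while Lyz2 had a difference of -0.18. The summed intensity was 42456 to 75236 against 19934 to 27404, to which 1 Itgam probe gave 19443 to 45777 under the Ntep label. The dimmer tested probes of Itgam and Csf1r differed less than the brightest ones (-0.03 against 1.26, and 0.44 against 3.19). The defining markers Ptprc, Adgre1 and Fcgr1 were not well above background on any array. None of 5 epithelial markers passed (median 0.47), nor did either of the tested endothelial markers among 5 (median 0.39), and Cdh5, Tek and Emcn were not well above background on any array. The part of these shifts in the BCL2 family values was not tested. In RNA from whole cultures, fewer cells of a type and less RNA per cell cannot be told apart.

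Probe sequences show which part of a transcript was read, and they are given for the members whose probes differ or lie in coding sequence. They are those of the array files, 5′ to 3′ in the sense of the transcript, with mm9 positions. The Bcl2l11 probe lies at chr2:127972893-127983988, bridges 11096 bases of the genome and so crosses an intron, and covers coding sequence of the BH3 domain. The Bcl2 probe (chr1:108608970-108609029) covers coding sequence of the BH1 domain. The dimmer Bcl2l1 probe (chr2:152655185-152655244) lies in coding sequence of the long form that the short, death-promoting splice form lacks. The dimmer Bad probe (chr19:7016918-7017403) bridges 486 bases of the genome and so crosses a splice junction.
Bcl2l11: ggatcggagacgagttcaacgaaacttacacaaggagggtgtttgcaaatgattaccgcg
Bcl2: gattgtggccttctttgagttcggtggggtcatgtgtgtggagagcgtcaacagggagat
Bcl2l1: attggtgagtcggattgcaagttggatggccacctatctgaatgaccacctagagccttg
Bad: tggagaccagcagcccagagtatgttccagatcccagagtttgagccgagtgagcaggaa

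The promoters of Bcl2l11 and Bbc3 are shown because these BH3-only genes had differences in the same direction in all 3 experiments. They are also shown because the forkhead gene Foxo3 passed the unpaired test on all arrays, a call lost whenever a single array was left out. A link between Foxo3 and these genes was not tested. Windows of 250 bases before to 50 bases after the start site came from RefSeq (GRCm38.p6) and were found for 9 of the 10 members. The forkhead motif TGTTTAC, searched on both strands, was present in windows of 2 members, Bcl2l11 and Bbc3, and in 4.05% of 27025 genes. Bak1 and Bcl2l1, also higher under the Ntep label in all 3 experiments, had no match. The AP-1 motif TGANTCA was found in no member (8.97% of genes) and the ATF4 motif TGATGNAA in none (4.51%). A p53 half-site was found in 1 member, Bax (9.55% of genes). The motifs were chosen after intensities had been seen, and a match describes letters and no binding. In the stretches below the motif is in capitals. It starts 227 bases before the start site in Bcl2l11 (chr2:128125788-128125857, plus strand) and 167 bases before it in Bbc3 (chr7:16310054-16310140, plus strand).
Bcl2l11: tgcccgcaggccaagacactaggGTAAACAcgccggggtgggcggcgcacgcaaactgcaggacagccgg
Bbc3: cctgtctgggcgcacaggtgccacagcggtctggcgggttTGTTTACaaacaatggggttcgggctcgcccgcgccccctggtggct

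No member passed the test after adjustment. Of the 14 probes, 12 were bright enough to be tested (mean of at least 50 in the brighter label), and they stood for 9 genes. With limma, 0 of these 12 had an adjusted p under 0.05, against 5.30% of all 30990 tested probes. The study's limits of a fold of 2 and an unadjusted p under 0.01 were met by 0 of 12, against 8.13%. An unadjusted p under 0.05 was found for 2 of 12 (Bbc3 and the dimmer Bcl2l1 probe), against 25.0% of all probes. The methods' t-test gave 0 calls too, where 0.920% of all probes passed it after adjustment. With the experiment as a block, 1 member passed, Bcl2l11, where 13.8% of all probes did. With an intensity trend in the variance Bbc3 passed (8.74% of all probes did), and with array weights Bbc3, Bcl2l11 and the dimmer Bcl2l1 probe passed (33.1%). With 3 arrays per label an exact permutation test of a single probe cannot give a p below 0.1.

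Values were higher under the Ntep label in all 3 experiments for 5 of 12 probes (Bak1, Bbc3, Bcl2l11 and both Bcl2l1 probes), against 32.4% of all tested probes. Values were lower in all 3 for 0 of 12, against 26.7%. The labels did not overlap for 2 probes, Bbc3 and the dimmer Bcl2l1 probe, both higher, against 17.0% of all probes higher and 15.1% lower. The median log2 difference of the 12 probes was 0.19, beside 0.06 over all tested probes.

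**Figure D1:**
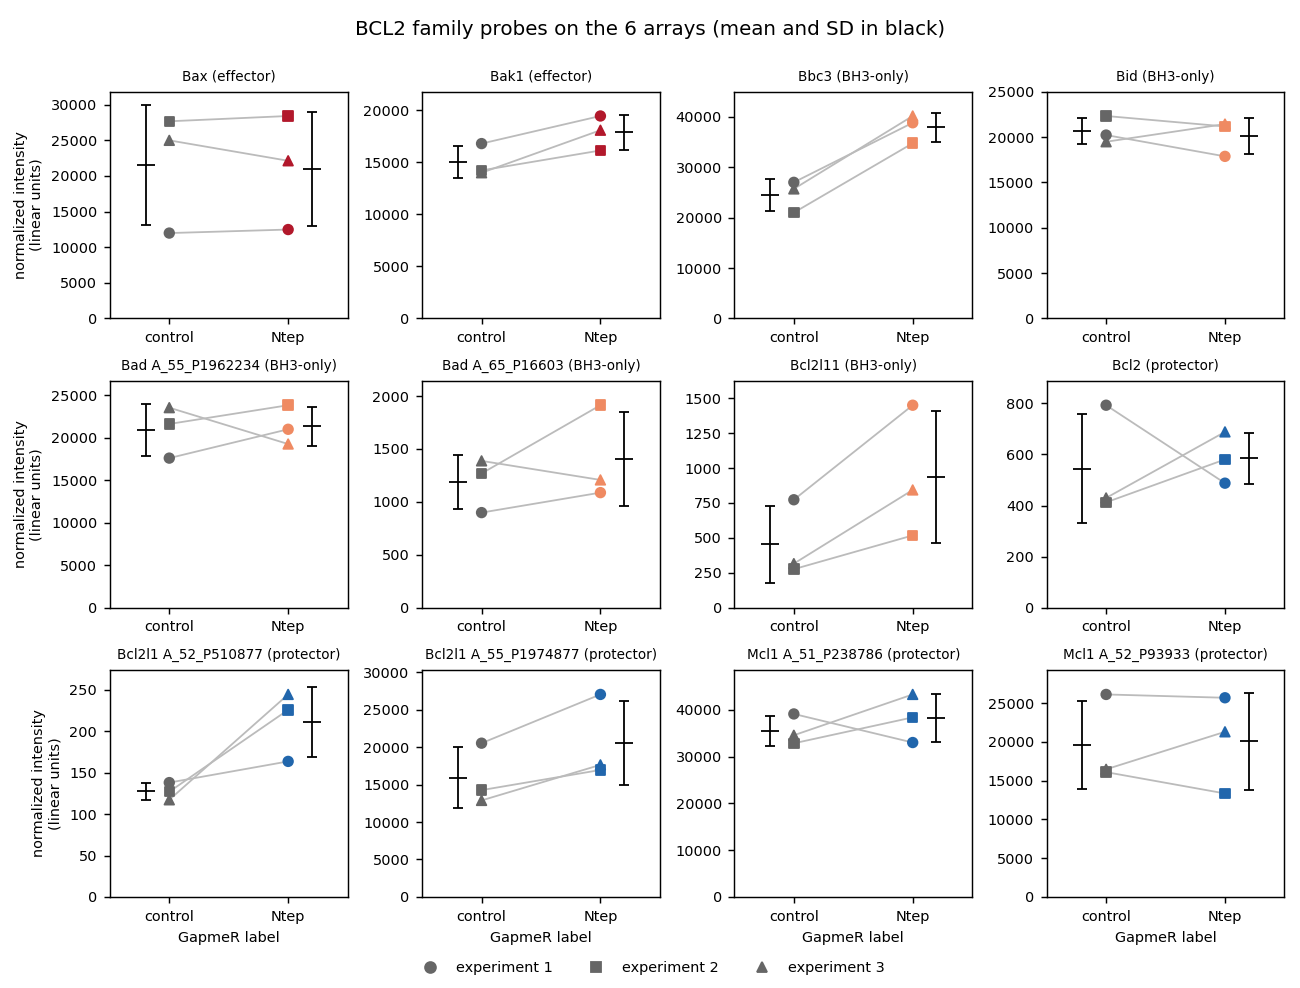
Normalized intensity (vertical axis, linear, from 0) of the 12 tested BCL2 family probes under GapmeR control and GapmeR Ntep. Symbols are the 3 experiments, lines join arrays of the same experiment, and black bars are mean and SD of 3 arrays. Bbc3 was between 34740 and 40149 under the Ntep label, above all control arrays, while the Bax lines run nearly flat at levels set by the experiment.

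Bax, the pore-forming effector and a textbook P53 target, had nearly equal means under both labels (chr7:52717122-52717181, mm9). Its intensity under the Ntep label was 12471, 28401 and 22118 in experiments 1, 2 and 3, and under the control label 11976, 27656 and 24982. Both arrays of experiment 1 were the lowest of their label, at 0.494 and 0.455 of the mean of the other experiments for Ntep and control. Within experiments the log2 differences were 0.06, 0.04 and -0.18. The log2 difference over all arrays was -0.03 (95% interval -1.11 to 1.06, adjusted p = 0.976), and with the experiment as a block the interval narrowed to -0.41 to 0.36, so a change of Bax by a fold of 2 lies outside that interval.

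Bak1, the other effector, had slightly higher values under the Ntep label (chr17:27156807-27156866). Intensities were 19443, 16132 and 18076 against 16792, 14218 and 13990. Each experiment had the Ntep array above its control, by 0.21, 0.18 and 0.37 on the log2 scale, but the labels overlapped between experiments. The log2 difference was 0.25 (95% interval -0.17 to 0.67) and did not pass (adjusted p = 0.407, and 0.260 with the block).

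Bbc3, which encodes PUMA, a BH3-only protein that binds every protector, had the smallest unadjusted p of the family (chr7:16903403-16903462). Intensities were 38804, 34740 and 40149 under the Ntep label and 26992, 20984 and 25685 under the control label. All 3 Ntep arrays were above all 3 control arrays. Means were 37898 ± 2816 (SD, n = 3) and 24554 ± 3160 (SD, n = 3), a 1.55-fold difference, and the experiments gave log2 differences of 0.52, 0.73 and 0.64. The log2 difference was 0.63 (95% interval 0.20 to 1.07, adjusted p = 0.0945 with limma). It stayed above the threshold with the block (adjusted p = 0.0569) and passed with the intensity trend (0.0407) and with array weights (0.0135). Over all alternatives its adjusted p ran from 0.0135 to 0.308, the highest without the GapmeR control array of experiment 2.

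Bcl2l11, which encodes BIM, a BH3-only protein that can activate the effectors directly, had the largest difference of the family. The probe over the BH3 coding sequence printed above read 1450, 517.4 and 843.1 under the Ntep label and 772.9, 275.7 and 315.3 under the control label. The labels overlapped, because both arrays of experiment 1 were high, at 2.13 and 2.62 times the mean of the other experiments. Within each experiment the Ntep array was higher, by 0.91, 0.91 and 1.42 on the log2 scale. The log2 difference of 1.08, a 2.11-fold difference, did not pass without pairing (95% interval -0.23 to 2.38, adjusted p = 0.271) and passed with the experiment as a block (95% interval 0.59 to 1.56, adjusted p = 0.0400). Without experiment 1 it was 1.16 (adjusted p = 0.102). The other Bcl2l11 probe (chr2:127954736-127955417) was not well above background on any array and was not tested, so the difference rests on a single probe.

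Pmaip1, which encodes NOXA, a BH3-only partner of MCL1, was not well above background on any of the 6 arrays. Its intensity was at the floor of 20 on 5 arrays and at 54.0 on the GapmeR Ntep array of experiment 1, so no fold is given.

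Bid and Bad, whose proteins are controlled by cleavage and phosphorylation, had differences near 0. Bid (chr6:120843464-120843523) read 17871, 21170 and 21431 against 20220, 22323 and 19481 (log2 difference -0.04, 95% interval -0.45 to 0.37, adjusted p = 0.903). The bright Bad probe (chr19:7026323-7026382) read 21017, 23851 and 19279 against 17619, 21641 and 23562 (0.04, 95% interval -0.43 to 0.50, adjusted p = 0.924). The dimmer Bad probe read 1087, 1913 and 1207 against 898.3, 1268 and 1387 (0.22, 95% interval -0.49 to 0.94, adjusted p = 0.664). Neither gene had the same sign in all experiments, and for Bid and the bright Bad probe both intervals lie within a fold of 2.

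Among the protectors, Bcl2l1, which encodes BCL-xL, had higher means under the Ntep label by both probes, and neither passed. The dimmer probe, in sequence of the long form, read 163.7, 226.0 and 244.6 against 138.1, 127.1 and 117.3. All 3 Ntep arrays were above all 3 control arrays, with means of 211 ± 42.4 (SD, n = 3) and 127 ± 10.4 (SD, n = 3). The log2 difference was 0.71 (95% interval 0.20 to 1.23) (adjusted p = 0.106, and 0.0996 with the block), and it passed with array weights (0.0064). With normexp background correction the difference was only 0.34 (adjusted p = 0.157). The bright probe (chr2:152606404-152606463) read 27045, 16955 and 17637 against 20534, 14263 and 12886. Its labels overlapped, with experiment 1 highest under each label, but each experiment had the Ntep array higher, by 0.40, 0.25 and 0.45. Its log2 difference was 0.37 (95% interval -0.32 to 1.05, adjusted p = 0.462, and 0.147 with the block).

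Bcl2, the founding protector, differed in sign between experiments. The probe over the BH1 coding sequence read 487.5, 580.4 and 688.3 under the Ntep label and 792.8, 412.4 and 429.6 under the control label. The control array of experiment 1 was the highest of all 6, and the log2 differences were -0.70, 0.49 and 0.68. Over all arrays the difference was 0.16 (95% interval -0.60 to 0.91, adjusted p = 0.779), and without experiment 1 it was 0.59 (adjusted p = 0.117).

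Mcl1, a short-lived protector, had small mean differences by both probes, and neither passed. The first probe (chr3:95466855-95466914) read 33023, 38402 and 43311 against 39139, 32857 and 34579, with a log2 difference of 0.10 (95% interval -0.34 to 0.55, adjusted p = 0.755). The other (chr3:95465543-95465602) read 25703, 13350 and 21308 against 26132, 16105 and 16468, with a log2 difference of 0.03 (95% interval -0.77 to 0.82, adjusted p = 0.969). Signs varied between experiments for both probes. For the first probe the experiments gave -0.25, 0.22 and 0.32, and without experiment 1 the difference was 0.27 (limma adjusted p = 0.313). For the other probe it was 0.05 without experiment 1 (limma adjusted p = 0.916).

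**Figure D2:**
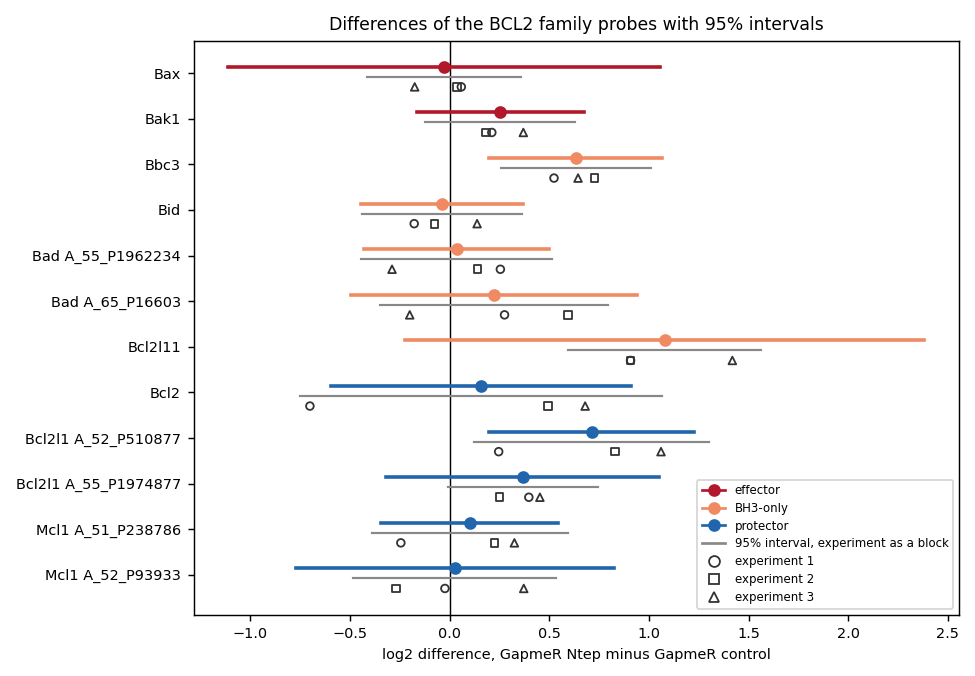
Log2 difference, GapmeR Ntep minus GapmeR control (horizontal axis), of each tested BCL2 family probe. Filled points with thick lines are the unpaired estimate and its 95% interval, thin grey lines the 95% interval with the experiment as a block, and open symbols the 3 single experiments. The unpaired interval of Bcl2l11 (-0.23 to 2.38) shrinks to 0.59 to 1.56 with the block, since the experiments differ in level and share the direction.

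Killers and protectors had similar differences. By the brightest probe of each gene, 4 of 6 tested killers and 3 of 3 protectors had a positive difference, with median log2 differences of 0.14 and 0.16, beside 0.00296 over 15246 genes. For each array, the mean log2 intensity of the 7 killers minus that of the 3 protectors was taken, of which only the change between arrays has a meaning. It was -0.34, -0.52 and -0.62 under the Ntep label and -0.98, -0.47 and -0.43 under the control label. The means differed by 0.14, less than the spread between arrays of a label (SD 0.24). Experiment 1 gave a difference of 0.64 towards the killers, and experiments 2 and 3 gave -0.05 and -0.19. Pmaip1 was not well above background on any array. Without Pmaip1 the values were 0.79, 0.81 and 0.72 against 0.31, 0.81 and 0.86, and the difference was 0.11. Without experiment 1 the sign turned (-0.12). No test was made on this score, since its members were chosen with results known.

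**Figure D3:**
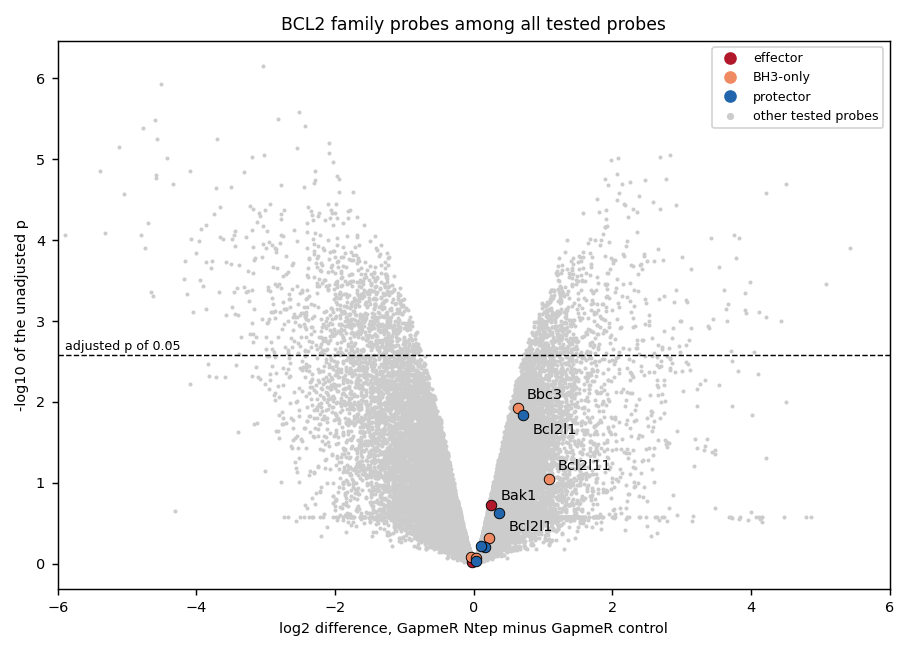
Log2 difference (horizontal axis) against -log10 of the unadjusted limma p (vertical axis) for the 30990 tested probes in grey and the 12 BCL2 family probes in color. The dashed line marks an adjusted p of 0.05. All 12 family probes lie below it, and most lie near a difference of 0.

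Genes around the family were taken from 5 lists, with the brightest probe per gene. Among all genes so measured, 2.33% passed as higher and 3.68% as lower. In the wider BCL2 family, 13 of 15 listed genes were on the array and 10 were tested, of which 1 rose and 0 fell (median log2 difference -0.09). The gene that rose was Bok, a BAX-like effector that can permeabilize mitochondria without BAX and BAK1. It read 4887, 3131 and 3299 under the Ntep label and 1903, 1398 and 1608 under the control label, without overlap (log2 difference 1.19, SE 0.24, adjusted p = 0.0499). Bok missed the threshold under 75th percentile scaling (0.0618), under the methods' t-test (0.100) and when dim probes were kept (0.107). Bcl2l2, a protector also known as BCL-w, read 2364, 2057 and 2098 against 3261, 2721 and 2531 and did not pass (-0.38, adjusted p = 0.248, and 0.138 with the block). Its dimmer probe, well above background on 3 control arrays and 1 Ntep array, was lower under the Ntep label in all 3 experiments, did not pass (adjusted p = 0.203) and passed with the block (0.0406). Bik, a BH3-only gene, read 30.9, 129.0 and 125.0 against 30.5, 52.2 and 58.0, was well above background on only 3 of the 6 arrays and did not pass (adjusted p = 0.458). Bmf, another BH3-only gene, had a difference of -0.92 and did not pass (adjusted p = 0.476). Hrk, Bcl2a1d and Bcl2l10 were not well above background on any array.

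Of 15 genes that act downstream of the mitochondrion and are reported here, all tested, 0 rose and 0 fell with limma, and 0 passed with the experiment as a block (median 0.01). Of all tested probes, 13.8% passed with the block. An unadjusted p under 0.05 was found for 1 of these genes, against 25.0% of all tested probes. It was Birc2, which encodes an inhibitor of apoptosis protein, with a log2 difference of -0.53 (adjusted p = 0.176). Apaf1, the scaffold that cytochrome c assembles into the apoptosome, read 8316, 5833 and 7097 under the Ntep label against 5332, 5435 and 4616 without overlap and did not pass (0.45, adjusted p = 0.221). Casp9, the caspase the apoptosome activates, had a difference of 0.35 (adjusted p = 0.597). Casp6 had a difference of 0.53 (adjusted p = 0.249).

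Of 9 transcription factors that act on BH3-only genes, 2 rose, 0 fell and 7 did not pass (median 0.36). Foxo3, a forkhead factor that acts on Bcl2l11 and Bbc3, read 1348, 1265 and 1956 under the Ntep label and 709.5, 488.2 and 601.5 under the control label (log2 difference 1.33, SE 0.25, adjusted p = 0.0419). The call rests on a single probe, designed to a cDNA clone, since the dimmer probe to the RefSeq transcript was well above background on only 2 of the 6 arrays. That dimmer probe had a difference of 0.20 (adjusted p = 0.753). Jun, an AP-1 subunit, read 16715, 9931 and 13195 against 4797, 2806 and 3046 (1.91, SE 0.30, adjusted p = 0.0320). Foxo1, the forkhead relative of Foxo3, was at 1976, 3440 and 3114 against 4259, 3796 and 3580 (-0.48, adjusted p = 0.296). Atf4, a factor of the integrated stress response, had a difference of 0.36 by its brightest probe (adjusted p = 0.224) and of 1.45 by a dimmer probe that passed (adjusted p = 0.0312). Ddit3, which encodes CHOP, had a difference of 0.79 (adjusted p = 0.358) and passed with the experiment as a block (0.0428). Trp53 itself read 5351, 3336 and 4725 against 4488, 2609 and 2516 and did not pass (0.51, adjusted p = 0.363).

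Of 10 other P53 targets, 4 had an unadjusted p under 0.05, against 25.0% of all tested probes. By the brightest probe none passed after adjustment (median 0.24). That median includes Perp, with a log2 difference of 0.89. Perp read 112.2, 22.6 and 20 under the Ntep label and was at the floor of 20 on all control arrays. It was well above background on only 1 array, which leaves its change unmeasured. Without Perp the median would be the difference of Mdm2, given at the end of this paragraph. Cdkn1a, which encodes the cell cycle inhibitor P21, read 20582, 10004 and 14155 under the Ntep label against 7039, 5347 and 6710, without overlap (log2 difference 1.18, adjusted p = 0.0768). It passed with the experiment as a block (0.0391), where 13.8% of all tested probes did. Of its dimmer probes, A_55_P1986282 had a difference of 0.93 (adjusted p = 0.197, and 0.130 with the block). The other, A_55_P1976204, was higher under the Ntep label and passed (limma adjusted p = 0.0466), but not with the block (0.0557). That probe was not well above background on any control array, so its difference is not given. Tnfrsf10b, a death receptor for TRAIL, had a difference of 0.97 (adjusted p = 0.0583) and passed with the block (0.0413). Aen, an apoptosis-linked nuclease, had a difference of 0.83 (adjusted p = 0.106) and Ei24 of 0.44 (adjusted p = 0.156). Mdm2, the ubiquitin ligase of P53, had a difference of 0.05 (95% interval -0.33 to 0.43, adjusted p = 0.872).

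Of 12 genes whose products modify or hold BCL2 family proteins, 0 rose and 1 fell (median 0.13). Btrc, an F-box protein of a ubiquitin ligase, read 279.3, 344.7 and 272.8 under the Ntep label against 670.7, 591.8 and 622.9 (log2 difference -1.08, SE 0.17, adjusted p = 0.0335), while a dimmer Btrc probe, well above background on 5 of the 6 arrays, had a difference of -0.43 (adjusted p = 0.417). Ppp3ca, the catalytic subunit of calcineurin, which dephosphorylates BAD, read 25475, 29242 and 23139 against 43311, 43137 and 41946 (-0.73, adjusted p = 0.0614) and passed with the block (0.0497). Huwe1, a ubiquitin ligase of MCL1, had a difference of -0.69 (adjusted p = 0.181) and Akt1, the kinase that phosphorylates BAD, of -0.36 (adjusted p = 0.235). The calls in these lists rest on all arrays. When single arrays were left out, Jun and Btrc passed only without the GapmeR Ntep array of experiment 2, and Bok and Foxo3 in no case, with the highest adjusted p without the GapmeR control array of experiment 2 (Bok 0.191, Foxo3 0.165, Btrc 0.145, Jun 0.143). No probe of the whole table passed without that control array or without the GapmeR Ntep array of experiment 3. Without experiment 1 only Jun passed in these lists (adjusted p = 0.0482).

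**Figure D4:**
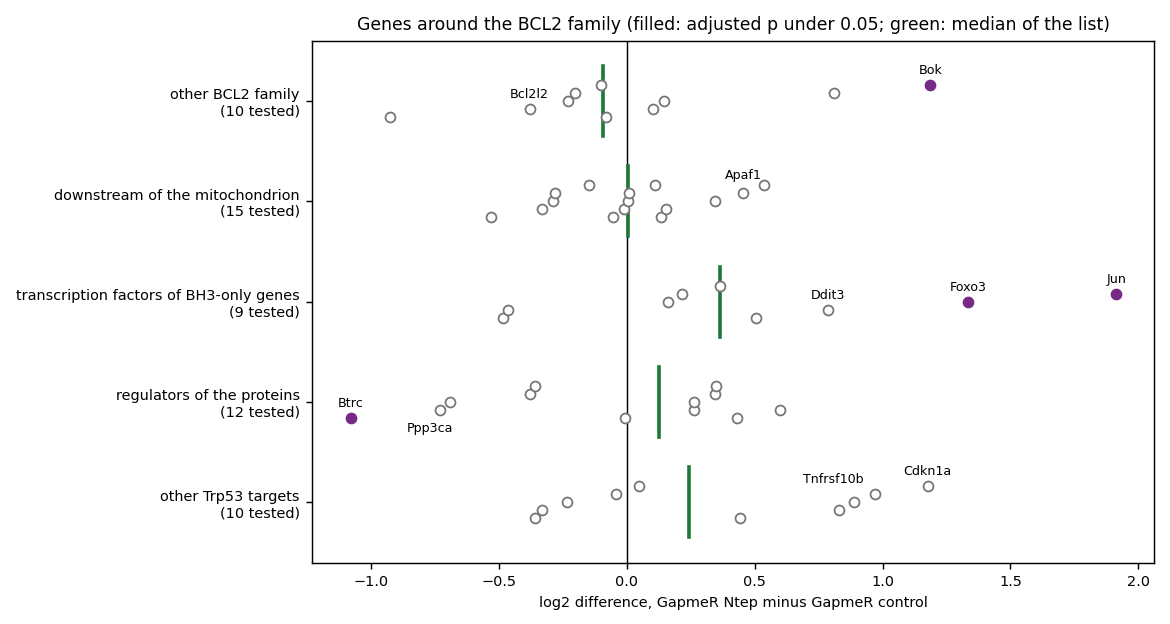
Log2 difference, GapmeR Ntep minus GapmeR control (horizontal axis), of each tested gene in the 5 lists around the BCL2 family (rows), with the brightest probe per gene. Filled points passed at an adjusted p under 0.05, open points did not, and green lines are medians. Jun (1.91), Foxo3 (1.33) and Bok (1.19) are the filled points on the right, and Btrc (-1.08) is the filled point on the left.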

How the data were processed

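Per the labels and methods, total RNA of 3T3 cultures was read on Agilent mouse arrays with a single dye, 3 for each GapmeR. The authors extracted the scans with Feature Extraction (version 10.7.3.1) and deposited, for every array, background-subtracted intensity values that had not been made comparable between arrays. A deposited table of intensity values after quantile normalization, with a floor of 20, served as an alternative.

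Replicate spots were averaged. Quantile normalization and a floor of 20 came next, and limma 3.58.1 (R 4.3.3 with data.table, 1.17.8) was fitted to log2 intensities, unpaired as in the methods. Summaries were made with Python 3.11.15 (pandas 2.3.3, numpy 2.4.6) and plots with matplotlib 3.10.9. A probe was tested if its brighter label averaged 50 or more. The p-values are two-sided and were adjusted by the Benjamini-Hochberg method across the 30990 probes so chosen. The steps were tested on simulated data. Quantile normalization forces equal distributions and could hide a shift of the whole transcriptome. The number of arrays limits the precision.

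Arrays were paired by the study's supplement, which sets each GapmeR Ntep array beside a control array. Residuals correlated at 0.466, 0.300 and 0.254 within experiments and at -0.327 to 0.126 between them, and a fit with the experiment as a block was also made.

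The members and lists were chosen with earlier results of these data known. Named genes are all members, list genes that passed, up to 4 genes per list by smallest unadjusted p, and Trp53, Cdkn1a, Mdm2, Apaf1 and Casp9. Some genes of the list downstream of the mitochondrion are not reported here. Ddit3, Perp, Col1a1, Trp53inp1 and the dimmer probes of list genes were named after their values were seen. Where a list gene has several probes, the brightest stands for it. Gene names are those of the array or, for 31250 probes, of RefSeq (GRCm38.p6), and probe positions are mm9. Alternatives were 75th percentile scaling, normexp with an offset of 50, the authors' normalized values, no intensity filter, probes well above background only, a floor of 50, removal of outlier spots, an intensity trend, array weights, the methods' t-test, the block, and leaving out each array. Leaving out experiment 1 or Pmaip1 was added after seeing the data.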

Additional observations from a re-analysis of the deposited data

How the results depend on the processing

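The count of BCL2 family members past the test, 0, became 1 with an intensity trend, 3 with array weights and 1 (Bcl2l11) with the experiment as a replicate block, and stayed at 0 without single arrays. It could only be 0 without the GapmeR control array of experiment 2 or the GapmeR Ntep array of experiment 3, since no probe of the whole table passed there. The count at a fold of 2 and an unadjusted p under 0.01, 0, became 1 with array weights and 1 with the replicate block, and was 0 without single arrays. The replicate block changed no other member's call. The difference between killers and protectors (0.14) ran from 0.0081 (mean over all probes of a gene) to 0.15 (75th percentile scaling) under other settings and from -0.04 to 0.23 without single arrays, and was -0.12 without experiment 1. In the 5 lists, 3 genes rose in the unpaired fit, 2 with 75th percentile scaling, 4 with normexp, 6 with the replicate block, 5 with only probes well above background, 1 without experiment 1 and 0 to 1 without single arrays. The fall (1 gene) became 2 with normexp, 2 with only probes well above background, 2 with the replicate block, 0 without experiment 1 and 0 to 1 without single arrays. With the methods' t-test Bok (0.100), Foxo3 (0.0928), Jun (0.0826) and Btrc (0.0551) all missed an adjusted p of 0.05, and without a filter on dim probes Bok (0.107), Foxo3 (0.0965) and Jun (0.0823) did. Over all probes, 1642 passed, 4292 with the replicate block, 10260 with array weights, 2707 with the trend, 285 with the methods' t-test and 0 to 1403 without single arrays.

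Over 18 alternatives for each of the 12 member probes, 196 of 216 kept the direction and 6 probes never turned. With 75th percentile scaling Bax turned to 0.094 and Bid to 0.094. Under that scaling the median over all tested probes was 0.22, against 0.06 in the main fit. With array weights Bid turned to 0.029, the bright Bad probe to -0.16 and the dimmer Bad probe to -0.022. Without experiment 1 Bid turned to 0.031 and the bright Bad probe to -0.075. Without single arrays, values ran from -0.40 to 0.31 for Bax, -0.086 to 0.045 for Bid, -0.084 to 0.13 for the bright Bad probe, -0.024 to 0.38 for the dimmer Bad probe, -0.0099 to 0.46 for Bcl2 and -0.18 to 0.30 for the Mcl1 probe at chr3:95465543-95465602. The cause was not tested. Pmaip1 and the dimmer Bcl2l11 probe were not well above background on any array, which leaves their change unmeasured.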

Other observations

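Of 12413 genes well above background on all 6 arrays, those whose log2 intensity followed Bbc3 most closely over the 6 arrays were Bahd1, which encodes a chromatin silencing factor (Pearson r = 0.993), Twistnb, which encodes a subunit of RNA polymerase I (r = 0.989), and Trpc1, which encodes a cation channel (r = 0.989). Their log2 differences between the labels were 0.67 (limma adjusted p = 0.0794), 0.78 (adjusted p = 0.0643) and 1.48 (adjusted p = 0.0451). These points share arrays and experiments, and 266 genes had an r above 0.95 with Bbc3, so the order among them describes these 6 arrays only.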
